A study of Mus musculus with 12 samples.

Results

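The 9 genes described here make, or read, 5-methylcytosine (m5C) in RNA: the methyltransferase genes Nop2, Nsun2, Nsun3, Nsun4, Nsun5, Nsun6 and Trdmt1, and the genes of the m5C-binding proteins Alyref and Ybx1. They were taken by symbol from the gene annotation of the deposited cytosine lists, and all 9 were found among 16172 genes with at least 1 listed cytosine of their own. The measurements came from RNA bisulfite sequencing (RNA BS-seq), in which unmethylated cytosines are converted and read as thymine while m5C stays cytosine. The cells were wild-type C57BL/6 neural stem cells (NSCs) from the subventricular zone of male mice aged 6 to 8 weeks. They were cultured for 4 days in medium with folic acid at 1.5 μM (low, LF), 10 μM (medium, MF) or 80 μM (high, HF), and EGF and bFGF were added in every group. Poly(A) RNA was taken from whole cells (total mRNA: LF, MF, HF) or from pooled heavy polysome fractions (polysome mRNA: pLF, pMF, pHF), with 2 libraries in each of the 6 groups and 12 libraries in all. The labels do not say which cultures came from which animals, so the p-values of the coverage tests measure the spread between these libraries. Those of Fisher's exact test, run on reads pooled over the libraries of a group, measure counting error only.

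NOP2 and NSUN5 methylate cytosines of the large cytosolic ribosomal RNA, NSUN2 methylates tRNAs and many mRNAs, NSUN3 and NSUN4 act on mitochondrial tRNA and ribosomal RNA, and NSUN6 and TRDMT1 (also called DNMT2) methylate tRNAs, with NSUN6 also acting on mRNAs. The methyl group comes from S-adenosylmethionine, whose synthesis draws on the folate cycle. ALYREF is an mRNA export adaptor and YBX1 an abundant mRNA-binding protein, and both bind m5C-bearing mRNAs.

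The lists held 797260 to 2071190 cytosines per library, with a summed coverage of 1186213013 to 2857966129 over these positions. A read counts once in this sum at each listed cytosine it covers, so the sum is not a number of reads. A cytosine enters a list from 10 covering reads and 1 unconverted read upwards, so coverage here means coverage at listed cytosines. Among background cytosines, those with a level under 5%, 0.139% to 0.148% of reads were unconverted in the LF and MF libraries, 0.187% and 0.193% in the libraries labelled HF, and 0.128% to 0.191% in polysome mRNA. Replicate 2 of pHF stood apart, where 38353 cytosines were over 90% unconverted, while the other 11 libraries had no more than 3465. At many of the HF sites that the study tabulates, the libraries labelled HF had a lower coverage than tabulated or did not list the site. This happened at no site in the other 10 libraries. Coverage equalled the tabulated value at 1 and 0 sites in the libraries labelled HF, and at 57 to 128 sites in each of the other 10. The libraries labelled HF are therefore named by their label. Of 10 NSC markers, 8 were listed in all 12 libraries, and Sox2 was listed in none under its own name. Of 6 neuronal markers 3, of 6 mural and fibroblast markers 4 and of 5 microglial markers 2 (Cx3cr1 and Tmem119) were also listed in all 12 libraries, while the other 3 microglial markers were listed in none. Of 6 oligodendrocyte lineage markers Olig1 was listed in all 12 at a median of 14.0 times the median gene, and 3 were listed in none. Among mural and fibroblast markers Col1a2 stood highest, at 9.06 times the median gene, and no endothelial marker was listed in more than 2 libraries.

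The cytosines below carry the methylation results, each shown with 10 bases on either side, 5′ to 3′ on the transcribed strand, with the cytosine in capitals. The first is the one cytosine of the 9 genes that met the site filter, namely 20 or more reads, 6 or more of them unconverted and a level of 10% or more, in both libraries of a group. The next 2 passed in 1 library each, and the last is followed by tcca, the downstream letters of NSUN6-type sites. These 3 were chosen after their values were seen.
Nsun5 3′UTR, chr5:135376291-135376311 (mm10, plus strand): gctcacacacCgaggctactc
Nsun4 exon 2, chr4:116048343-116048363 (mm10, minus strand): ccagaggggaCgtcagccgct
Nsun4 exon 4, chr4:116040194-116040214 (mm10, minus strand): acgacctctcCacttcccgaa
Nsun4 exon 4, chr4:116040197-116040217 (mm10, minus strand): ccaacgacctCtccacttccc
The Nsun5 cytosine lies in exon 10, in the 3′UTR, 317 bases after the stop codon, and the 3 Nsun4 cytosines lie in coding sequence. All 3261 different cytosines listed for the 9 genes matched the letters of the mm10 reference.

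Coverage differed widely among the 9 genes. Each gene's coverage in a library was taken as the median over its background cytosines, a measure per position that does not depend on transcript length. In the 4 total LF and MF libraries this was 4276 to 9550 reads for Ybx1, 995 to 2787.5 for Alyref, 1184 to 1644.5 for Nsun2 and 482 to 683.5 for Nop2. It was 146 to 269 for Nsun4, 52.5 to 162.5 for Nsun5, 58 to 112 for Trdmt1, 25 to 97 for Nsun6 and 45.5 to 59 for Nsun3. Alyref overlapped Nsun2, Nsun4 overlapped Nsun5, and the lowest 4 genes overlapped one another, while Ybx1 stood above all others and Nop2 lay between Nsun2 and Nsun4 without overlap. Only Nop2, Nsun2, Alyref and Ybx1 had at least 10 background cytosines in every library, which left 4 of the 9 genes among 7135 genes tested.

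Polysome mRNA held more Nop2 coverage than total mRNA at low and medium folate. Relative to the median gene of each library, Nop2 stood at 1.09 and 0.882 in LF, 0.870 and 1.12 in MF, 1.76 and 1.68 in pLF, and 2.87 and 3.39 in pMF. Of its listed cytosines, 0% and 70.3% stood in runs (described below) in LF, 42.6% and 51.3% in MF, 70.4% and 78.5% in pLF, and 0% in both pMF libraries. The Nop2 medians therefore also depend on the stretches that were listed, and position-by-position values are given below. All 4 polysome libraries lay above all 4 total libraries, but the share of all genes that separated in this way was not counted. The log2 difference was 1.24 ± 0.246 (SE, 4 against 4 libraries; limma, adjusted p = 0.00516), and 29.9% of the genes tested passed the same threshold, 16.9% upwards. Without the HF and pHF libraries it was again 1.24 (limma, adjusted p = 0.0044). With all 3 concentrations as labelled, HF and pHF included, the log2 difference fell to 0.67 (adjusted p = 0.0274, limma). The libraries labelled HF held Nop2 at 2.34 and 3.67 times the median gene and pHF at 1.65 and 2.75, so that the mean was higher in total than in polysome mRNA there, with overlapping groups. Position by position the order in these libraries was the reverse, with log2 values of 0.66 and 0.44 in labelled HF and 1.01 and 1.38 in pHF. In pLF and pMF, 6 neuronal markers summed to 2.30 to 3.46 times the median gene, against 1.41 to 2.20 in LF and MF. The 6 oligodendrocyte lineage markers summed to 12.3 to 16.8 against 17.8 to 18.9. The 10 NSC markers summed to 112.7 to 131.0 against 97.0 to 109.2, with Vim (median 66.1 times the median gene) and Fabp7 (26.8) the largest. Of the 8 NSC markers tested, 2 were higher in polysome mRNA and 3 lower (limma, adjusted p under 0.05). Position by position 1 was higher and 4 were lower. Of the neuronal markers 2 were tested, and Tubb3 was higher (0.98, limma, adjusted p = 0.0423) while Map2 did not pass (-0.21). Olig1, the one oligodendrocyte lineage marker tested, did not pass (-0.35). Mural and fibroblast (9.60 to 13.8 against 9.63 to 11.8) and microglial sums (0.315 to 0.966 against 0.284 to 0.499) overlapped. The part of these markers in the Nop2 difference was not tested.

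Nsun2 stood at 3.23 to 3.88 times the median gene in pLF and pMF, against 2.20 to 2.97 in LF and MF. Its log2 difference of 0.50 ± 0.181 did not pass the adjusted threshold (limma, adjusted p = 0.0603). The Nsun2 value passed with all 3 concentrations (0.60, limma, adjusted p = 0.0115), without the HF and pHF libraries (0.50, adjusted p = 0.0472), and without pLF replicate 1, pHF replicate 1 or pHF replicate 2 (adjusted p = 0.0400 to 0.0445). With quantile normalization it fell to 0.23 (limma, adjusted p = 0.344). Alyref stood at 3.49 and 1.72 in LF, 5.03 and 2.38 in MF, 4.98 and 6.01 in pLF and 4.26 and 5.43 in pMF, with overlapping groups and a log2 difference of 0.81 ± 0.319 (limma, adjusted p = 0.0796). The replicates of Alyref in total mRNA lay far apart, and the value passed without LF replicate 1 (1.07, limma, adjusted p = 0.0494) or MF replicate 1 (1.08, adjusted p = 0.0461). Without LF replicate 2 it was 0.56 (limma, adjusted p = 0.258) and without MF replicate 2 it was 0.54 (adjusted p = 0.260). Ybx1 stood at 15.8 and 11.6 in LF, 7.72 and 15.7 in MF, 8.84 and 14.4 in pLF and 10.1 and 10.3 in pMF, with a log2 difference of -0.19 ± 0.253 (limma, adjusted p = 0.612).

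**Figure D1:**
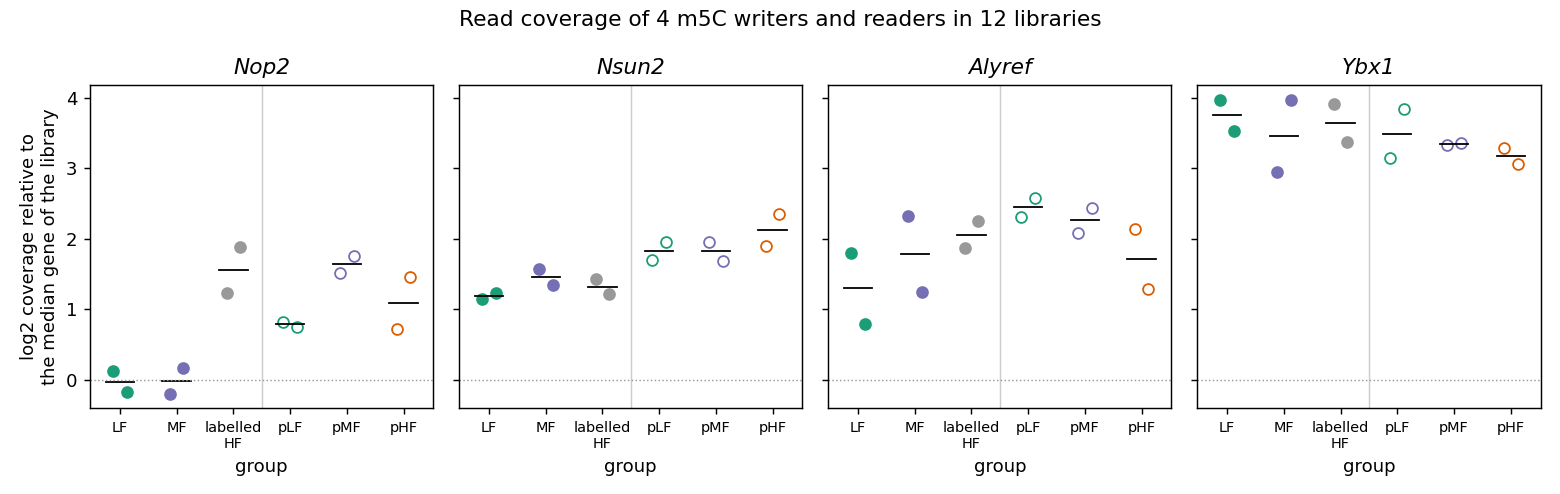
Log2 coverage of Nop2, Nsun2, Alyref and Ybx1 relative to the median gene of the same library (y axis) in the 6 groups (x axis); points are libraries (filled: total mRNA, open: polysome mRNA) and bars are means of 2. Nop2 lies near the median gene in LF and MF and above it in the other 4 groups.

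The median moves with the positions at which a library happens to list cytosines, so coverage was also compared position by position, an alternative added after the data were seen. There Nop2 differed by 1.24 on the log2 scale (limma, adjusted p = 7.19e-06) and Alyref by 0.82 (adjusted p = 5.24e-05), both higher in polysome mRNA, while Ybx1 was lower by a log2 difference of -0.27 (adjusted p = 0.0163). Nsun2 differed by 0.27 (adjusted p = 0.0651). In this comparison 64.7% of 6673 genes passed, 36.5% upwards and 28.2% downwards, so a share of 3 in 4 members is near that of all genes. For Ybx1, 65.4% to 94.4% of listed background cytosines lay in exons in total mRNA and at least 99.6% in polysome mRNA. With exonic cytosines alone its log2 difference was -0.81 (limma, adjusted p = 0.00483), and over cytosines listed in all 12 libraries it was -1.08 (adjusted p = 1.3e-07), a setting in which 622 of 850 genes passed. Alyref lost its difference when the mean replaced the median over cytosines (log2 difference -0.011, limma, adjusted p = 0.955).

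No difference between low and medium folate passed the test for the coverage of these 4 genes. In bulk RNA the number of cells that express a gene and the RNA per cell cannot be told apart. In total mRNA, LF minus MF was -0.01 ± 0.348 for Nop2, -0.27 ± 0.256 for Nsun2, -0.50 ± 0.451 for Alyref and 0.30 ± 0.358 for Ybx1 on the log2 scale. By limma 0 of 7135 genes passed (0%), 136 had an unadjusted p under 0.05, and edgeR called 0. The 95% intervals were wide: the Nop2 interval ran from -0.79 to 0.76 and the Nsun2 interval from -0.84 to 0.30. In polysome mRNA, pLF minus pMF was -0.86 ± 0.348 for Nop2, and the value did not pass (limma, adjusted p = 0.534, where 0.168% of genes passed). Position by position it was -0.43 (limma, adjusted p = 0.476). Nsun2, Alyref and Ybx1 differed by 0.0016, 0.19 and 0.15 and did not pass. For pHF minus pMF, Nop2 was at -0.55, Nsun2 at 0.30, Alyref at -0.55 and Ybx1 at -0.18, with the lowest adjusted p at 0.733 (limma; 0.0841% of genes passed). Without pHF replicate 2 the 4 values were -0.92, 0.08, -0.12 and -0.06, without pHF replicate 1 they were -0.18, 0.52, -0.98 and -0.29, and none passed. Position by position Nop2 turned to 0.18 and Ybx1 to 0.10. The polysome to total difference of Nop2 in LF, less that in MF, was -0.84 on the log2 scale, which did not pass either (interaction term, limma, adjusted p = 0.999; 0.014% of genes passed).

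Nop2 was higher in the libraries labelled HF than in MF by 1.57 ± 0.348 on the log2 scale (limma, adjusted p = 0.0311); 6.36% of all genes passed, 3.55% upwards. Its coverage was 1014.5 and 1418 reads in these 2 libraries against 482 and 683.5 in MF. The position-adjusted difference was 1.06 (limma, adjusted p = 0.00162), where 39.9% of genes passed. The call was lost when either MF, either labelled HF or either LF library was left out, with adjusted p values of 0.0548 to 0.214 and log2 differences of 1.25 to 1.90. Nsun2, Alyref and Ybx1 differed by -0.13, 0.27 and 0.19 and did not pass. With the mean over cytosines Nsun2 was at -0.59 (limma, adjusted p = 0.0561) and Alyref turned to -0.59 (adjusted p = 0.0544). Position by position Nsun2 was at -0.42 (limma, adjusted p = 0.0672), and with exonic cytosines Ybx1 turned to -0.31 (adjusted p = 0.469). In the same 2 libraries the summed coverage of 6 mural and fibroblast markers was 22.3 and 23.0 times the median gene against 9.63 to 11.8 in LF and MF, and that of 6 oligodendrocyte lineage markers was 7.42 and 8.18 against 17.8 to 18.9. That of 6 neuronal markers was 3.03 and 3.86 against 1.41 to 2.20, that of 5 microglial markers 1.04 and 1.18 against 0.284 to 0.499, and that of 4 endothelial markers 0.114 and 0.218 against 0. The 10 NSC markers summed to 89.5 and 90.3 against 97.0 to 109.2, and 2 of the 8 tested were lower, the radial glia genes Fabp7 (-1.24, limma, adjusted p = 0.0395) and Slc1a3 (-1.23, adjusted p = 0.0431). Of the neuronal markers 2 were tested, Tubb3 (0.69) and Map2 (-0.45 on the log2 scale), and neither passed (limma). For all of these markers, their part in the Nop2 difference was not tested.

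**Figure D2:**
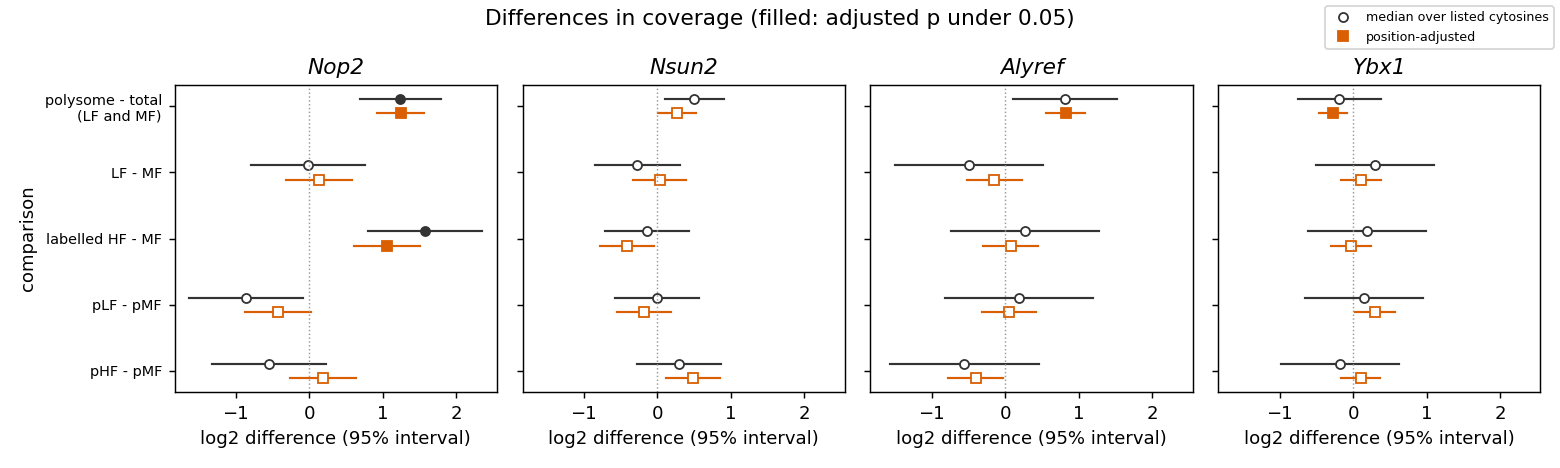
Log2 difference in coverage with its 95% interval (x axis) for 5 comparisons (y axis) in each of 4 genes; circles use the median over listed cytosines and squares the position-adjusted coverage, and filled symbols passed an adjusted p of 0.05. Nop2 is the one gene with filled circles, for polysome against total mRNA (1.24) and for labelled HF against MF (1.57).

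Nsun3, Trdmt1 and Nsun6 were thinly covered. Nsun3 had 7, 9, 40 and 8 listed cytosines in LF and MF and 6 and 8 under the HF label, against 0 to 2 in the 6 polysome libraries. Trdmt1 had 3 to 12 in total mRNA and 0 to 2 in polysome mRNA. Both genes thus had fewer in every polysome library than in every total library, as did 22.5% of 12063 genes listed in all total libraries, and 23.5% of those with a median of 15 or fewer cytosines there. Per 1000000 listed cytosines of the library, Nsun3 still did not overlap (0 to 1.66 against 2.94 to 21.7) and Trdmt1 did (0 to 2.57 against 1.50 to 6.00), against shares of 12.2% and 16.8% of the same 2 sets of genes without overlap. Cytosines with under 10 reads are not listed, so these counts do not show that the mRNAs were absent from polysomes. Nsun6 had 5 to 45 in total mRNA and 0 to 43 in polysome mRNA, with overlapping groups. Ybx1 also had fewer in every polysome library (272 to 311) than in every total library (321 to 518), but the groups overlapped once scaled to the size of the lists (187 to 349 against 157 to 281 per 1000000).

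Nsun4 and Nsun5 had at least 5 background cytosines in every library. Nsun4 stood at 146 and 177.5 reads in LF, 269 and 191.5 in MF, 21 and 87 in pLF and 179 and 94.5 in pMF. A cytosine with 1 unconverted read and a level under 5% has a coverage of at least 21, so the value of pLF replicate 1 lies at the lowest possible and no difference is given for Nsun4. Nsun5 stood at 98.5 and 52.5 in LF, 127.5 and 162.5 in MF, 169 and 136 in pLF and 39 and 120 in pMF. Tested at the limit of 5 cytosines, its log2 difference between polysome and total mRNA was 0.75 ± 0.400 (limma, adjusted p = 0.182), and no folate comparison passed. Its lowest values, 39 in pMF replicate 1 and 52.5 in LF replicate 2, came from libraries where most listed Nsun5 cytosines stood in runs, described below. These medians therefore depend on the stretches that were listed. The groups of polysome and total libraries overlapped for both genes. In pHF, Nsun4 stood at 99 and 110.5 reads and Nsun5 at 154.5 and 313, the higher value in replicate 2.

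Runs of neighbouring cytosines made up much of the highest counts of Nsun3, Nsun4, Nsun5 and Nsun6. In pLF replicate 1, 70 of the 72 listed Nsun4 cytosines followed one another without a gap over 261 bases, each with 1 unconverted read at a coverage of 15 to 26. Single runs also held 27 of 40 Nsun3 cytosines in MF replicate 1, 32 of 45 Nsun6 cytosines in LF replicate 1 and 41 of 43 in pLF replicate 2. For Nsun5, 2 runs held 68 of 86 cytosines in pMF replicate 1, and 2 runs held 65 of 81 in LF replicate 2. Runs also occurred in the 4 genes tested for coverage. By library they held 0% to 78.5% of listed cytosines in Nop2, 0% to 84.9% in Nsun2, 0% to 89.5% in Alyref and 42.3% to 77.1% in Ybx1. In MF replicate 1 the longest Nop2 run, of 54 cytosines, stood at 20 to 78 reads. Of 870 different cytosines listed for Nsun3, Nsun4, Nsun5, Nsun6 and Trdmt1, 692 (79.5%) were listed in 1 library alone and 1 was listed in 6 or more, while 14% of all cytosines of single genes were listed in 6 or more. That 1 cytosine is the Nsun5 site shown above.

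**Figure D3:**
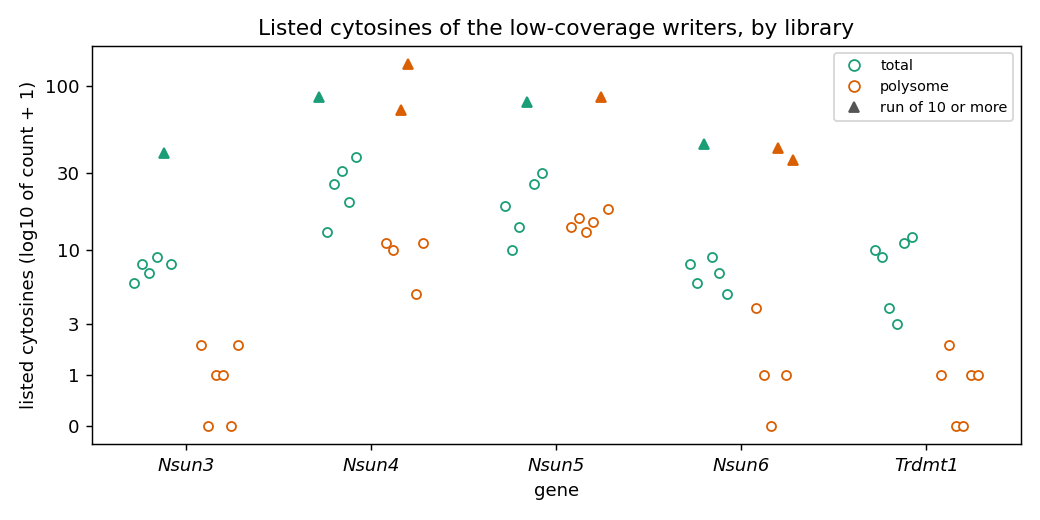
Number of listed cytosines on a log10 scale of the count plus 1 (y axis) for 5 low-coverage writer genes (x axis), 1 point per library; triangles mark libraries with a run of at least 10 successive exonic cytosines all listed. Nsun3 and Trdmt1 have 0 to 2 in polysome mRNA, and the highest counts of Nsun3, Nsun4, Nsun5 and Nsun6 are triangles.

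The Nsun5 3′UTR cytosine was listed in 11 of the 12 libraries and carried more unconverted reads in most polysome libraries. In total mRNA its level was 6.25% in LF replicate 2 (2 of 32 reads), 5.17% and 2.70% in MF, then 4.44% and 5.41% for labelled HF, and LF replicate 1 did not list it. In polysome mRNA it was 2.5% and 17.2% in pLF (1 of 40 and 10 of 58 reads), 23.5% and 18.4% in pMF (8 of 34 and 7 of 38), and 6.56% and 8.89% in pHF (4 of 61 and 4 of 45). The 5 total libraries lay between 2.70% and 6.25%, and 5 of the 6 polysome libraries lay above them, with pLF replicate 1 below. The Wilson 95% interval of the pooled reads was 2.62% to 8.58% in total mRNA (10 of 209) and 8.95% to 16.7% in polysome mRNA (34 of 276); it covers counting error only, and reads of 1 PCR product are not independent. The pMF reads put this cytosine on the list of sites, and without them the polysome share was 9.31% (19 of 204, interval 6.04% to 14.1%), which overlaps the interval of total mRNA. Within 60 bases on either side, 6 other cytosines were listed, none in more than 1 library. In pMF replicate 1, however, 68 of 86 listed Nsun5 cytosines stood in runs. There 7 Nsun5 cytosines with at least 20 reads, this one included, had a level of 10% or more. Higher levels in polysome mRNA were common among sites. Of 466 other sites tested in LF and MF, 328 passed Fisher's exact test, 290 of them higher in polysome mRNA.

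Between folate concentrations the Nsun5 level did not pass the test. The pLF minus pMF difference was -9.61 percentage points (Fisher's exact test on pooled reads, adjusted p = 0.594), where 9.68% of 1074 sites passed; it was -3.59 points without pLF replicate 1 and -18.3 without pLF replicate 2, neither past the threshold. The pHF minus pMF difference was -13.3 points (Fisher's exact test, adjusted p = 0.0972), where 9.1% of 703 sites passed, and -14.3 points without pHF replicate 2 (adjusted p = 0.202). Because the pMF reads selected the site, neither value is independent of its selection. In polysome against total mRNA it could not be tested with LF replicate 1, which does not list it. Over the remaining LF and MF libraries the pooled level was 4.72% in total mRNA (6 of 127 reads) and 15.3% in polysome mRNA (26 of 170), given without a test since the polysome side holds the pMF reads. The list does not say whether LF replicate 1 had 0 unconverted reads or under 10 reads at this cytosine.

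**Figure D4:**
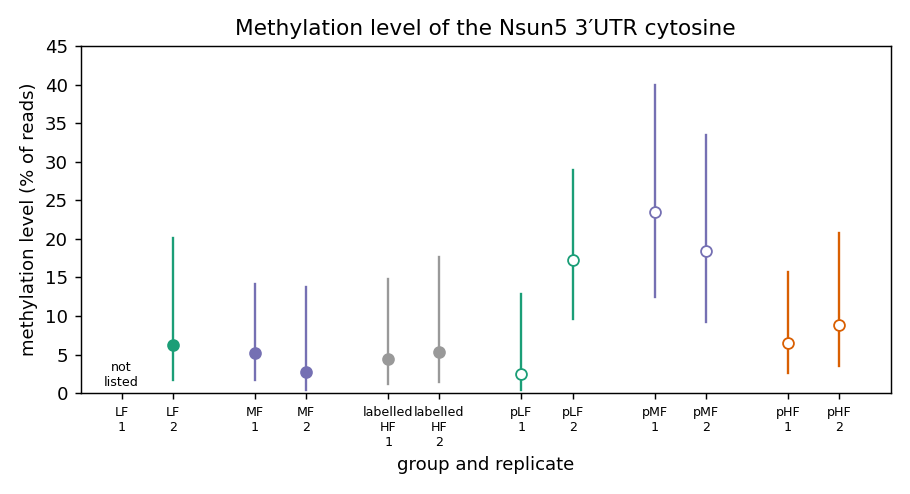
Methylation level of the Nsun5 3′UTR cytosine in percent of reads (y axis) in each library by group and replicate (x axis), with Wilson 95% intervals; filled points are total mRNA and open points polysome mRNA. The 2 pMF libraries are highest, at 23.5% and 18.4%, and the 2 pLF libraries lie apart, at 2.5% and 17.2%.

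No other cytosine of the 9 genes passed the site filter in both libraries of a group. The Nsun4 exon 2 cytosine stood at 19.8% in labelled HF replicate 1 (26 of 131 reads) and at 2.27% in replicate 2 (2 of 88), and no other library listed it. The first Nsun4 exon 4 cytosine was listed in pLF replicate 2 alone, at 14.8% (8 of 54 reads), within a run of 71 listed cytosines. The cytosine 3 bases before it, followed by tcca, was listed in 5 libraries at 1.67% to 11.1%, with 1 to 3 unconverted reads in each. Of all different background cytosines in the lists 0.715% had these 4 letters next to them. The listed cytosines lay mostly in coding sequence for Nop2 (95.7% of 652), Nsun2 (82.9% of 601), Trdmt1 (76.6% of 47), Nsun5 (71.3% of 265) and Nsun4 (69.1% of 333). The share was 58.6% of 145 for Nsun6, 53.4% of 337 for Alyref and 51.2% of 80 for Nsun3. In Alyref 44.2% and in Nsun3 43.8% lay in the 3′UTR, and for Ybx1 47.8% of 801 lay outside annotated exons. In the well-covered genes the unconverted share of background reads stayed low: 0.138% to 0.297% in Nop2, 0.104% to 0.226% in Nsun2, 0.0982% to 0.238% in Alyref and 0.0702% to 0.133% in Ybx1.

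Other genes of m5C and m6A biology passed between polysome and total mRNA at shares near the 29.9% of all genes, with 2 of 6 m5C-related and 2 of 10 m6A genes. Of 12 further m5C-related genes 6 were tested; Ybx3, a paralog of Ybx1, rose by 1.01 ± 0.275 on the log2 scale (limma, adjusted p = 0.0209) and Dnmt1, the maintenance DNA methyltransferase, fell by 1.42 (SE 0.179, limma, adjusted p = 0.000576). Their median log2 difference was 0.45, that of the 4 members 0.66 and that of all genes 0.03, but position by position the m5C-related median turned to -0.38, with 0 of 5 genes higher and 3 lower, where 64.7% of all genes passed and 28.2% were lower. Of 14 genes of the m6A machinery 10 were tested; the m6A reader Ythdc1 was higher by 1.35 (limma, adjusted p = 0.0495) and Zc3h13, a part of the writer complex, lower by a log2 difference of -0.83 (adjusted p = 0.0418). Position by position Ythdc1 turned to a log2 difference of -0.89 (limma, adjusted p = 0.000466), and Ybx3 no longer passed (0.37, adjusted p = 0.0945); 1 of 10 m6A genes was higher and 4 were lower, against 36.5% and 28.2% of all genes. In the libraries labelled HF against MF, where 6.36% of all genes passed, 1 of 6 m5C-related genes rose, the splicing factor gene Srsf2 (1.28, limma, adjusted p = 0.0426), and 1 was lower, Ythdf2 (-3.07, adjusted p = 0.0395), an m6A reader that also binds m5C and was listed with the m5C genes. None of the 10 genes of the m6A list passed. Position by position, where 39.9% of all genes passed, Ythdf2 was at -1.48 (limma, adjusted p = 0.00141) and Srsf2 did not pass (0.14, limma, adjusted p = 0.647), whereas the demethylation enzyme gene Tet3 was higher (0.90, adjusted p = 0.0152) and the m6A writer genes Mettl3 (-1.09, adjusted p = 0.0145) and Wtap (-0.83, adjusted p = 0.0396) were lower. Neither list had a call for LF against MF, pLF against pMF or pHF against pMF.

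Over the 12 libraries the genes whose coverage followed Nop2 most closely were Glipr2 and Slc7a1 (Pearson r 0.90 for both), and those closest to Nsun2 were Gm8822 and Ddx18 (r 0.92 for both). Alyref was followed by Lrfn4 (r 0.86), and Ybx1 by Rplp2 (0.75) and Map3k20 (0.74). These are descriptions over libraries of 2 fractions. Between the members themselves r lay between -0.49 (Nsun2 and Ybx1) and 0.39 (Nop2 and Nsun2). With position-adjusted coverage it lay between -0.79 (Nop2 and Ybx1) and 0.62 (Nop2 and Alyref), and none of the genes just named was among the 2 closest to its member.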

How the data were processed

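Per the study's methods, the authors trimmed RNA BS-seq reads with fastp, aligned them to mm10 with meRanGh, called candidate cytosines with meRanCall and annotated m5C sites with a script of their own and an Ensembl annotation; the submitters' processing notes also name R 4.1.1. The deposited counts (coverage, unconverted reads and mutated reads per cytosine) are not normalized, and the deposited level is the fraction of unconverted reads. The lists start at a coverage of 10 with 1 unconverted read and precede the authors' later filters. Cytosines assigned to several genes were left out. Levels were recomputed, with 0 mismatches.

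The members and lists were chosen with earlier results of these data known. All 9 members are named, with up to 4 genes of each other list that passed, sites that passed in both libraries of a group, and the 2 genes most like each tested member, of which 1 is not reported here. Background cytosines have a level under 5%. Median coverage per gene was log2-transformed, centred on the median gene of each library and fitted over all 12 libraries with limma 3.58.1 (trend; Benjamini-Hochberg, 0.05) in R 4.3.3, for genes with at least 10 background cytosines per library. edgeR 4.0.16 on rounded medians was an alternative. Levels were tested by two-sided Fisher's exact test on pooled reads (scipy 1.17.1), which has no replicate error. On simulated data for the polysome against total comparison (7135 genes), 0%, 18% and 71.5% of changed genes were recovered at log2 changes of 0.5, 1 and 2. Far fewer genes were changed in the simulation than the 29.9% that passed in the data. The Benjamini-Hochberg cut-off depends on that share, so these values do not measure the power of the real comparison. Python 3.11.15, pandas 2.3.3, numpy 2.4.6 and matplotlib 3.10.9 were used. Features came from GENCODE and the reference letters from GRCm38.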

Additional observations from a re-analysis of the deposited data

How the results depend on the processing

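Nop2 stayed higher in polysome than in total mRNA (LF and MF) and past the threshold under all 23 alternatives run. Many of these left out 1 library, among them HF and pHF libraries outside the comparison. Nop2 could not be tested with cytosines listed in all 12 libraries, since none of its cytosines was listed in more than 10. Of the 4 genes only Ybx1 was tested in that setting. Polysome against total calls numbered 622 of 850 genes with cytosines listed in all 12 libraries, 3754 with the mean over cytosines and 4316 position-adjusted, against 2132; leaving out 1 library gave 1345 (without MF replicate 1) to 2276. Labelled HF against MF gave 580 of 850 genes with cytosines listed in all 12 libraries, 725 with a background level under 0.02, 1869 with the mean, 707 with quantile normalization and 2665 position-adjusted, against 454, and 17 (without MF replicate 1) to 621 with 1 library left out. LF against MF gave 0 to 2 with 1 library left out. pLF against pMF gave 0 with cytosines in all 12 libraries, 3 with a background level under 0.02, 4 with the mean and 1 without the HF and pHF libraries, against 12, and 0 to 72 with 1 library left out. pHF against pMF gave 0 with the mean, with at least 30 cytosines and position-adjusted, 3 with at least 5 cytosines, and 2 with quantile normalization or edgeR, against 6, and 1 to 4 with 1 library left out. For sites, a level minimum of 0.2 gave 27 (pLF against pMF), 23 (pHF against pMF) and 131 (polysome against total) in place of 104, 64 and 328. limma on the log odds, which has replicate error, gave 0 for both folate comparisons, and leaving out 1 library gave 73 to 154 for pLF against pMF and 43 to 126 (without pHF replicate 1) for pHF against pMF. The Nsun5 cytosine was not tested at the level minimum of 0.2. In the other 9 alternatives of each folate comparison its difference kept its sign and did not pass. With 1 library left out it was -18.3 to -3.59 points (pLF against pMF) and -16.0 to -10.9 (pHF against pMF). Because the pMF reads selected this cytosine, the kept sign is not independent of that selection. The cause of these shifts was not tested.

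The replicate numbers did not pair the libraries (correlations of same-numbered deviations -0.043 to 0.037). With the replicate block, pHF against pMF gave 3 coverage calls, and no call on a member changed. For sites the block was run with limma on the log odds, which gave 0 calls for both folate comparisons with and without it.

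Nop2 and Alyref in pLF against pMF, Nsun2 and Alyref in pHF against pMF, and Nsun2 in labelled HF against MF kept their sign and did not pass in any alternative run. Nsun2 in polysome against total mRNA kept its sign and passed in 5 of 23. The following values, which did not pass as designed, changed sign. LF against MF turned for Nop2 to 0.0016 (background level under 0.02), 0.025 and 0.026 (at least 5 or 30 cytosines), 0.013 (quantile), 0.0040 (edgeR) and 0.13 (position-adjusted), for Nsun2 to 0.031 (position-adjusted) and for Ybx1 to -0.044 (exonic). Labelled HF against MF turned to -0.59 for Alyref (mean) and for Ybx1 to -0.11 (cytosines in all 12 libraries), -0.31 (exonic) and -0.028 (position-adjusted). pLF against pMF turned for Nsun2 to -0.0021 (exonic), -0.021 (background level under 0.02), -0.074 (mean), -0.0017 and -0.00034 (at least 5 or 30 cytosines), -0.070 (quantile), -0.0066 (edgeR) and -0.18 (position-adjusted). pHF against pMF turned to 0.18 for Nop2 (position-adjusted) and for Ybx1 to 0.098 (cytosines in all 12 libraries) and 0.10 (position-adjusted). Polysome against total turned to -0.011 for Alyref with the mean. With 1 library left out, the ranges that crossed 0 were -0.19 to 0.17 (Nop2), -1.04 to 0.046 (Alyref) and -0.21 to 0.81 (Ybx1) for LF against MF, -0.27 to 0.81 (Alyref) and -0.33 to 0.70 (Ybx1) for labelled HF against MF, -0.13 to 0.13 (Nsun2) and -0.21 to 0.50 (Ybx1) for pLF against pMF, and -0.44 to 0.070 for Ybx1 in polysome against total mRNA.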
